A study of Saccharomyces cerevisiae with 16 samples.

Results

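The genes described here make, take up, esterify and bind sterols in Saccharomyces cerevisiae, baker's yeast. They were chosen by symbol: every gene named ERG followed by a number, with MVD1, IDI1, NCP1, CYB5, ARE1, ARE2, AUS1, PDR11, HES1, KES1, TGL1, YEH1, YEH2 and ATF2. The array measured 34 such genes among its 5449 named genes. Each of the 34 had a probe set of its own, and all 34 passed the filter on low values (4 log2 units or more on 3 or more arrays), as did 5213 of all genes.

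Ergosterol is the main sterol of yeast membranes and plays the part that cholesterol plays in animal cells. It is made from acetyl-CoA by way of mevalonate, farnesyl diphosphate, squalene and lanosterol, and several enzymes after squalene use molecular oxygen, so yeast without oxygen cannot complete the synthesis and depends on sterol taken up from its surroundings. Sterol in excess of what membranes hold is stored in lipid droplets as esters of fatty acids, which hydrolases open again.

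RNA came from the haploid laboratory strain CEN.PK113-7D grown on mineral medium that was limited for glucose, with glucose in the feed then raised linearly until ammonia limited growth. An anaerobic and an aerobic series gave 8 serial samples each. Early denotes the 3 samples of lowest feed glucose in a series, mid the next 2, and late the 3 of highest. Anaerobic early samples (0, 4.35 and 10.38 h) had 1, 4.87 and 10.31 g/L, mid samples (16.88 and 26.52 h) 16.19 and 24.86 g/L, and late samples (35.67, 42.85 and 50.85 h) 33.1, 39.56 and 46.75 g/L. Aerobic early samples (0, 4.1 and 6.85 h) had 1, 5.51 and 8.5 g/L, mid samples (9.6 and 14.5 h) 11.56 and 16.96 g/L, and late samples (27.25, 42.65 and 53.95 h) 30.97, 47.91 and 60.34 g/L. Phases of the same name therefore do not match in feed glucose between the series. Whether sterol was supplied to the anaerobic medium is not given in the labels, nor is the sample at which ammonia became limiting.

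Values are log2 intensities of 1 probe set per gene, so levels of different genes are not compared. Changes are differences in log2 units with their standard error (SE) from a limma model over all 16 arrays, and a gene is called when its Benjamini-Hochberg adjusted p over the 5213 tested genes is under 0.05. No label states that the samples are from independent cultures, so the p-values measure only the scatter among serial samples, and precision is limited by the number of arrays. Because each condition had 1 series, the effects of oxygen and of the individual culture cannot be told apart. Within a series, feed glucose rose together with elapsed time and the approach to ammonia limitation, so their effects cannot be told apart either. The hypoxic and aerobic marker genes given below also changed over the anaerobic samples.

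Array medians lay between 10.78 and 10.97 in the anaerobic series and between 11.33 and 11.51 in the aerobic series, whereas the highest values of an array were 16.65 to 16.75 in the anaerobic and 16.44 to 16.58 in the aerobic series. Over all genes the median anaerobic minus aerobic difference was -0.51 over all phases, -0.45 early and -0.57 late. Oxygen differences are given as deposited. Counts of calls, and values of genes whose call or direction a rescaling moved, are also given after quantile normalization of the 16 arrays and after centring each array on its median. The aerobic 9.6 h array had a median correlation of 0.870 with the other arrays of its series, against 0.923 to 0.960 for the others, across genes that are not independent. The 6 hypoxic marker genes averaged 10.11 to 14.27 on the later anaerobic arrays and 5.04 to 5.77 on aerobic arrays, where 30 of 48 values lay under 4. ANB1, DAN1, TIR1 and AAC3 stayed at 4.43 or below on aerobic arrays, but HEM13 had 10.99 to 12.51 there. COX5B ran from 6.25 at 6.85 h to 11.05 at 42.65 h in the aerobic series, and its late means were 11.01 in aerobic and 11.30 in anaerobic samples. At 0 h the 6 hypoxic markers averaged 9.59 in the anaerobic series. CYC1 and COX5A, genes of aerobic cells, averaged 15.24 there, against 10.64 to 14.20 on later anaerobic arrays and 14.78 to 15.30 on aerobic arrays. The part of the 2 arrays at 0 h and of the aerobic 9.6 h array in the results was not tested. Some counts and values without these 3 arrays are given, but not for every gene they move. Mating-type markers of a cells averaged 13.32 to 15.04 on anaerobic and 12.41 to 15.16 on aerobic arrays, and those of alpha cells 5.69 to 8.50 on anaerobic and 5.86 to 11.01 on aerobic arrays. The alpha-cell markers were not alike: MF(ALPHA)1 ran from 5.27 at 4.1 h to 12.9953 at 42.65 h in the aerobic series, and STE3 from 5.70 to 9.13.

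The widest differences lay among genes of sterol import, ester synthesis, binding and acetylation, and those of the synthesis enzymes were smaller. In late samples the importer genes AUS1 and PDR11 were 23.7-fold and 9.38-fold higher in the anaerobic than in the aerobic series, and the ester synthase genes ARE1 and ARE2 were 8.32-fold higher and 59.9-fold lower. Among the 22 synthesis genes of the selection the widest late difference was 2.48-fold, that of ERG28. Within a series the 22 genes of synthesis had a median range over the 8 samples of 0.68 log2 units in the anaerobic series, from 0.37 for ERG12 to 1.53 for ERG9, and of 0.91 in the aerobic series, from 0.47 for IDI1 to 1.58 for ERG26. The 10 genes of import, esters, binding and acetylation had median ranges of 3.19 in the anaerobic and 1.35 in the aerobic series. Over all genes the median range was 0.85 in the anaerobic and 1.11 in the aerobic series.

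**Figure D1:**
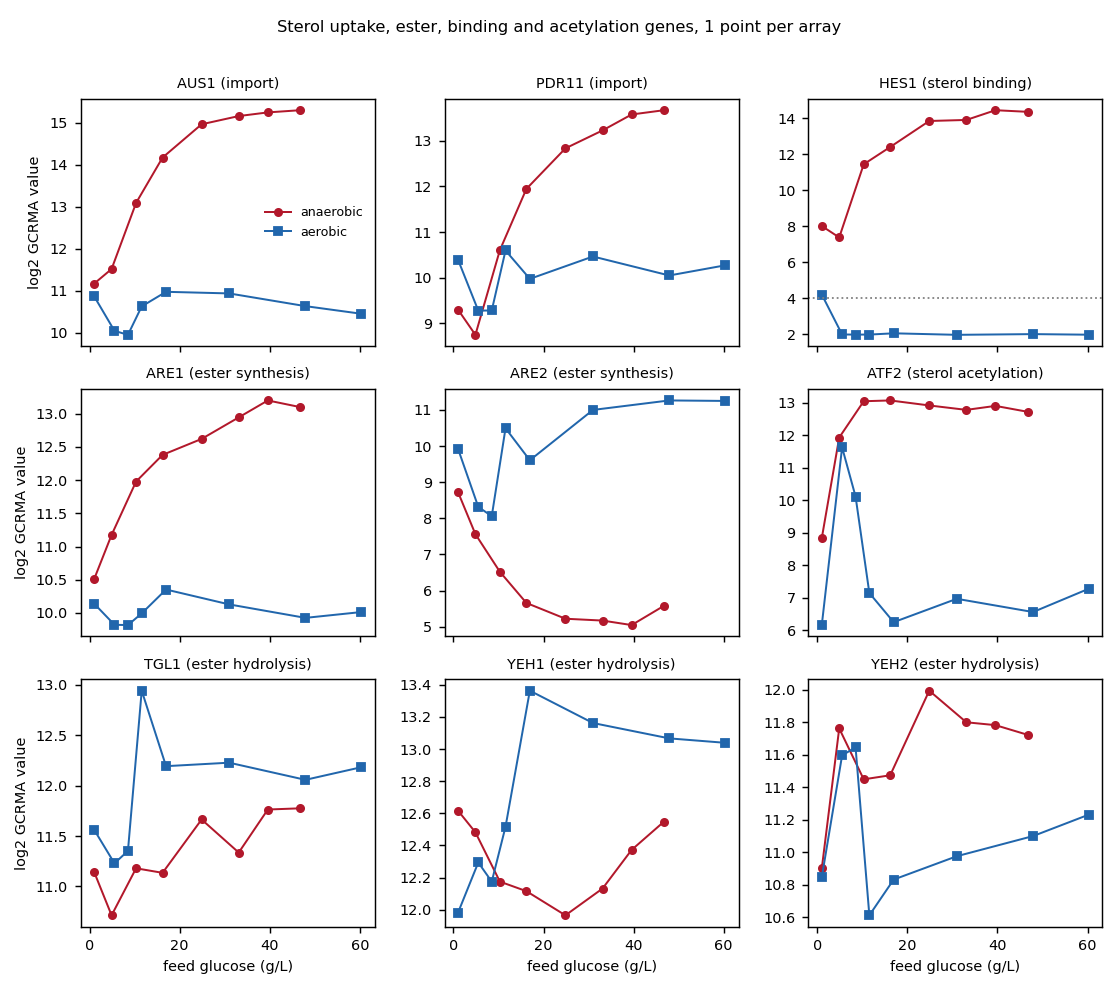
Log2 intensity (vertical axes) of genes of sterol import, ester synthesis, ester hydrolysis, binding and acetylation against feed glucose in g/L (horizontal axes), 1 point per sample, for the anaerobic and the aerobic series. AUS1, PDR11 and HES1 climb to between 13.23 and 15.30 in anaerobic late samples, ARE1 and ARE2 part from each other in the anaerobic series, and the aerobic lines of AUS1, PDR11 and ARE1 stay between 9.28 and 10.98.

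AUS1 encodes an ATP-binding cassette transporter of the plasma membrane that brings sterol into anaerobic cells. Its level was 11.17, 11.52 and 13.09 in anaerobic early samples, 14.18 and 14.97 in mid samples and 15.16, 15.25 and 15.30 in late samples. In aerobic cells it was 10.87, 10.05 and 9.95 early, 10.63 and 10.98 mid, and 10.94, 10.63 and 10.45 late. Every anaerobic sample lay above every aerobic sample, and the anaerobic level climbed with each sample. In bulk RNA, a change in the share of cells that express a gene and a change in RNA per cell cannot be told apart. AUS1 was higher in the anaerobic series by 1.64 ± 0.42 early (adjusted p = 0.0106) and by 4.57 ± 0.42 late (adjusted p = 1.3e-05). Relative to the median of all genes these differences were 2.09 and 5.13. Within the anaerobic series it rose by 3.31 ± 0.42 (adjusted p = 0.00135), while the aerobic change of 0.39 ± 0.42 was not called (adjusted p = 0.568).

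PDR11 encodes a transporter of the same family that also takes part in sterol uptake. It measured 9.30, 8.75 and 10.61 in anaerobic early samples, 11.95 and 12.84 in mid samples and 13.23, 13.58 and 13.67 in late samples. Aerobic samples had 10.40, 9.28 and 9.28 early, 10.60 and 9.97 mid, and 10.47, 10.05 and 10.27 late. The first pair of anaerobic samples lay within or below the aerobic values, and from the third sample on the anaerobic series lay above them all. Accordingly the early difference of -0.10 ± 0.44 was not called (adjusted p = 0.885), and the late difference was 3.23 ± 0.44 (adjusted p = 0.000132), or 3.80 relative to the median of all genes. PDR11 rose by 3.94 ± 0.44 along the anaerobic series (adjusted p = 0.000755), and its aerobic change of 0.61 ± 0.44 was not called (adjusted p = 0.374). The late calls and the anaerobic late minus early calls of AUS1 and PDR11 held under each other filter, scaling, variance model, phase limit and probe set rule, and with each array left out. On the same arrays, their slopes on log2 feed glucose in the anaerobic series were called too (adjusted p = 7.24e-05 for AUS1 and 0.000704 for PDR11).

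ARE1 and ARE2 encode the sterol acyltransferases that join sterols to fatty acids. ARE1 was at 10.51, 11.17 and 11.98 in anaerobic early samples, 12.38 and 12.62 in mid samples, and 12.94, 13.20 and 13.10 in late samples. The aerobic levels were 10.14, 9.82 and 9.82 early, 9.99 and 10.35 mid, and 10.13, 9.93 and 10.01 late. All anaerobic samples were above all aerobic ones, which stayed within a narrow band. ARE1 rose by 1.86 ± 0.28 along the anaerobic series (adjusted p = 0.00309) and had a change of 0.10 ± 0.28 along the aerobic series (adjusted p = 0.84). It was higher in anaerobic cells by 1.29 ± 0.28 early (adjusted p = 0.00482) and by 3.06 ± 0.28 late (adjusted p = 1.21e-05).

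ARE2 moved in opposite directions in the 2 series. Anaerobic samples had 8.73, 7.56 and 6.52 early, 5.66 and 5.22 mid, and 5.17, 5.05 and 5.58 late. Aerobic samples had 9.93, 8.32 and 8.06 early, 10.49 and 9.61 mid, and 10.9996, 11.26 and 11.25 late. The series overlapped only among early samples, and the late samples lay apart. ARE2 fell by 2.34 ± 0.55 in late against early anaerobic samples (adjusted p = 0.028), and it rose by 2.40 ± 0.55 in late against early aerobic samples (adjusted p = 0.0143). Its anaerobic minus aerobic difference was -1.16 ± 0.55 early, which was not called (adjusted p = 0.109), and -5.90 ± 0.55 late (adjusted p = 1.3e-05), or -5.33 relative to the median of all genes.

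The ARE1 minus ARE2 difference within an array shows how far the pair parted, although its level has no meaning because the probe sets differ. In the anaerobic series it was 1.78, 3.61, 5.46, 6.72, 7.40, 7.77, 8.15 and 7.52 in order of feed glucose. In the aerobic series it was 0.21, 1.51, 1.76, -0.50, 0.75, -0.87, -1.34 and -1.23. The anaerobic values climbed through the first 7 samples, and the aerobic values were lower in late than in early samples. The call of ARE2 along the anaerobic series ended when the 0 h, the 4.35 h or any 1 late anaerobic array was left out (5 of 16 fits, adjusted p 0.0532 to 0.124). Its call along the aerobic series ended without the aerobic 4.1, 6.85, 42.65 or 53.95 h array (4 of 16 fits, adjusted p 0.0538 to 0.071).

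TGL1, YEH1 and YEH2 encode the hydrolases that release sterols from esters. TGL1 had 11.14, 10.71 and 11.18 in anaerobic early samples, 11.14 and 11.66 mid, and 11.34, 11.76 and 11.77 late. In aerobic samples it had 11.56, 11.23 and 11.35 early, 12.94 and 12.19 mid, and 12.23, 12.06 and 12.18 late. Its highest value was on the aerobic 9.6 h array, and by the deposited values its anaerobic samples lay below its aerobic samples in each phase. Its difference over all phases, -0.69 ± 0.14 (adjusted p = 0.000622), was not called after quantile normalization or centring, with -0.15 and -0.10. YEH1 measured 12.62, 12.48 and 12.17 in anaerobic early samples, 12.12 and 11.97 mid, and 12.13, 12.37 and 12.55 late. Aerobic samples had 11.98, 12.29 and 12.17 early, 12.52 and 13.36 mid, and 13.16, 13.07 and 13.04 late. The series overlapped early and lay apart in mid and late samples, with the aerobic ones higher.

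YEH2 had 10.90, 11.76 and 11.45 in anaerobic early samples, 11.47 and 11.995 mid, and 11.80, 11.78 and 11.72 late. Its aerobic levels were 10.85, 11.60 and 11.65 early, 10.61 and 10.83 mid, and 10.98, 11.10 and 11.23 late. Late anaerobic samples were all above late aerobic samples. Along the aerobic series YEH1 rose by 0.94 ± 0.20 (adjusted p = 0.01) and TGL1 by 0.77 ± 0.22 (adjusted p = 0.0342). The call of TGL1 ended without the aerobic 4.1 or 6.85 h array or any 1 late aerobic array (adjusted p 0.0786 to 0.125). Along the anaerobic series limma called 0 of the 3 hydrolase genes (1 at an unadjusted p under 0.05), with changes of 0.61 for TGL1, -0.07 for YEH1 and 0.40 for YEH2. In late samples YEH2 was higher in anaerobic cells by 0.67 ± 0.24 (adjusted p = 0.0364), a call lost without any 1 of the 6 late arrays (adjusted p 0.0555 to 0.105). YEH1 was lower there by the deposited values (-0.74 ± 0.20, adjusted p = 0.00768), but not called after quantile normalization or centring, with -0.27 and -0.11.

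HES1 encodes a member of the oxysterol-binding protein family. In anaerobic samples it was at 8.02, 7.38 and 11.45 early, 12.41 and 13.86 mid, and 13.92, 14.46 and 14.37 late. Aerobic samples gave 4.20 at 0 h and 1.96 to 2.05 on the other 7 arrays, which is the bottom of the scale. Measured from a floor of 4 log2 units, HES1 was therefore higher in anaerobic cells by at least 4.88 log2 units early and at least 10.25 late. It passed the filter on low values through the anaerobic arrays, so the oxygen difference is a description with no test, and HES1 stands in the counts of called genes below on the same terms. Along the anaerobic series it rose by 5.30 ± 0.89 (adjusted p = 0.00625). KES1, of the same protein family, lay between 12.19 and 12.91 in anaerobic and between 12.71 and 13.20 in aerobic samples. Over all phases KES1 was called lower in anaerobic cells as deposited, a direction that both rescalings reversed. Its change along either series was not called, with 0.23 ± 0.16 in the anaerobic and 0.25 ± 0.16 in the aerobic series.

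ATF2 encodes an acetyltransferase that acts on alcohols and on some sterols. It had 8.83, 11.93 and 13.04 in anaerobic early samples, 13.07 and 12.91 mid, and 12.78, 12.90 and 12.72 late. Aerobic samples had 6.16, 11.62 and 10.11 early, 7.14 and 6.25 mid, and 6.97, 6.56 and 7.28 late. Both series were at their lowest at 0 h, and both were much higher at about 4 h. Thereafter anaerobic cells kept the high level, and aerobic cells from 9.6 h on did not. The early difference of 1.97 ± 1.20 was not called (adjusted p = 0.21), and the late difference was 5.86 ± 1.20 (adjusted p = 0.00163), a 58.2-fold higher level in anaerobic cells. The aerobic late minus early change was -2.36 ± 1.20 (adjusted p = 0.199) with all arrays, and -3.93 and called without the 3 arrays. In the R64 annotation of RefSeq, ATF2 is listed beside ERG1 on chromosome VII.

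The 7 genes from acetyl-CoA to farnesyl diphosphate were ERG10 (acetoacetyl-CoA thiolase), ERG13 (HMG-CoA synthase), ERG12 and ERG8 (mevalonate and phosphomevalonate kinase), MVD1 (mevalonate diphosphate decarboxylase), IDI1 (isopentenyl diphosphate isomerase) and ERG20 (farnesyl diphosphate synthase). Their anaerobic minus aerobic differences over all phases had a median of -0.43, close to the -0.51 of all genes. ERG13, ERG8, IDI1 and ERG20 were called lower (background 62.3% of all tested genes), by -0.43, -0.80, -0.63 and -0.48, and ERG10, ERG12 and MVD1 were not called. None of these 4 calls held in all 3 scalings: centring gave 0.15 for ERG13, -0.22 for ERG8, -0.05 for IDI1 and 0.10 for ERG20. Limma called 0 of the 7 along the anaerobic series (3 at an unadjusted p under 0.05) and 0 along the aerobic series (1 unadjusted), with median changes of 0.31 and 0.09.

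IDI1 was the gene of this stretch with the widest anaerobic range. It had 13.73 at 0 h and a lowest value of 12.57 at 16.88 h in the anaerobic series, against 13.30 to 13.77 in the aerobic series. Its anaerobic late minus early change of -0.49 ± 0.22 was not called (adjusted p = 0.21).

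Between farnesyl diphosphate and lanosterol stand ERG9 (squalene synthase), ERG1 (squalene epoxidase, which uses oxygen) and ERG7 (lanosterol synthase). ERG1 had 14.99, 14.72 and 15.08 in anaerobic early samples, 15.17 and 15.32 mid, and 15.47, 15.64 and 15.68 late. Aerobic samples had 14.38, 13.73 and 13.87 early, 14.88 and 14.72 mid, and 14.91, 14.82 and 14.79 late. In each phase every anaerobic sample lay above every aerobic sample of that phase. ERG1 was higher in anaerobic cells by 0.94 ± 0.16 early (adjusted p = 0.00143) and by 0.75 ± 0.16 late (adjusted p = 0.00176). It rose along both series, by 0.67 ± 0.16 in the anaerobic (adjusted p = 0.0281) and by 0.85 ± 0.16 in the aerobic series (adjusted p = 0.00496), and was the only gene of synthesis called along the aerobic series with all arrays. The anaerobic call ended without the 4.35, 42.85 or 50.85 h array (adjusted p 0.107 to 0.123).

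ERG9 had 14.15, 13.27 and 13.99 in anaerobic early samples, 14.24 and 14.23 mid, and 14.54, 14.80 and 14.60 late. Aerobic samples had 13.87, 13.85 and 13.69 early, 15.07 and 14.42 mid, and 14.17, 14.10 and 14.12 late. Its anaerobic level was lowest at 4.35 h and its aerobic level highest at 9.6 h. ERG9 rose by 0.84 ± 0.21 along the anaerobic series (adjusted p = 0.0346), a call lost in 7 of 16 fits with 1 array left out: without the aerobic 4.1 h or any 1 late aerobic array, or without the anaerobic 4.35, 42.85 or 50.85 h array (adjusted p 0.0517 to 0.162). ERG7 was higher in anaerobic cells by 0.54 ± 0.12 late (adjusted p = 0.00341), and its changes along the series, 0.18 and 0.00 in the anaerobic and aerobic series, were not called.

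The 12 genes after lanosterol were ERG11 (lanosterol demethylase), ERG24 (a sterol reductase), ERG25, ERG26 and ERG27 (methyl oxidase, dehydrogenase and ketoreductase of the demethylation complex), ERG28 (the scaffold of that complex), ERG29 (a membrane protein implicated in this synthesis), ERG6 (methyltransferase), ERG2 (isomerase), ERG3 and ERG5 (desaturases) and ERG4 (the last reductase). In late samples limma called 9 higher (background 4.93% of all tested genes) and 0 lower (49.0%) in anaerobic cells, also 9 and 0 at an unadjusted p under 0.05. Their median difference was 0.55, against -0.57 for all genes. By the deposited values the late groups of 10 lay with every anaerobic sample above every aerobic one (10.4% of all tested genes), and those of the other 2, ERG29 and ERG5, the other way (69.3%). The largest differences were those of ERG28, 1.31 ± 0.17 (adjusted p = 0.000108), ERG26, 0.98 ± 0.25 (adjusted p = 0.00599), and ERG2, 0.95 ± 0.12 (adjusted p = 7.8e-05).

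ERG26 showed the pattern in its samples. Anaerobic values were 13.36, 13.08 and 14.02 early, 14.11 and 14.46 mid, and 14.31, 14.50 and 14.45 late. Aerobic values were 12.75, 13.44 and 13.50 early, 14.33 and 13.76 mid, and 13.48, 13.40 and 13.44 late. The series overlapped early and mid and lay apart late, with an aerobic peak at 9.6 h and no such return to a lower level in anaerobic samples. Its anaerobic late minus early change of 0.93 ± 0.25 was called at adjusted p = 0.0486, close to the threshold. That call was lost after quantile normalization, after centring and in 12 of 16 fits with 1 array left out, namely all but those without the aerobic 0, 9.6 or 14.5 h array or the anaerobic 10.38 h array (adjusted p 0.056 to 0.188).

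ERG28 had 14.17, 14.08 and 14.79 in anaerobic early samples, 14.72 and 15.02 mid, and 14.98, 15.17 and 15.12 late, against 13.50, 13.88 and 13.77 in aerobic early samples, 14.36 and 14.23 mid, and 13.69, 13.83 and 13.81 late. In every phase its anaerobic samples were above its aerobic samples. ERG4, the last reductase, had late minus early changes of -0.29 ± 0.16 in the anaerobic and -0.33 ± 0.16 in the aerobic series, neither called, the only negative anaerobic change of the 12.

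ERG29 was lower in anaerobic cells over all phases. It had 12.14, 11.60 and 11.67 in anaerobic early samples, 11.83 and 11.9993 mid, and 12.06, 12.25 and 12.12 late. Aerobic samples had 12.43, 13.08 and 12.93 early, 13.51 and 13.15 mid, and 12.58, 12.43 and 12.48 late. By the deposited values every anaerobic sample lay below every aerobic sample. The difference over all phases was -0.93 ± 0.11 (adjusted p = 1.8e-05), and it stayed called after quantile normalization (-0.44) and centring (-0.34). The early difference of -1.01 ± 0.18 (adjusted p = 0.00204) was not called after either rescaling. Late means were 12.15 in anaerobic and 12.50 in aerobic samples, with a late median difference of -0.57 over all genes. The late difference of ERG29 was not called as deposited, and it turned positive on centring.

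Of the 5 enzymes that use oxygen, ERG1, ERG11, ERG25 and ERG3 were higher over all phases in anaerobic cells and ERG5 was lower. Their differences were 0.71, 0.30, 0.35 and 0.39, against -0.59 for ERG5, and the calls of ERG1 and ERG3 held in all 3 scalings. After quantile normalization ERG11 and ERG25 had 0.24 and 0.28 and were not called. ERG5 had -0.38 and stayed called there, but centring left it at -0.0014, not called. ERG25, the methyl oxidase, had 15.94, 15.53 and 15.67 in anaerobic early samples, 15.80 and 15.75 mid, and 15.85, 16.03 and 16.0016 late. Its aerobic levels were 15.57, 14.83 and 14.82 early, 15.57 and 15.88 mid, and 15.70, 15.60 and 15.53 late. The early groups overlapped through the aerobic 0 h sample alone, and the early difference of 0.64 ± 0.19 (adjusted p = 0.0189) was not called after quantile normalization or without the aerobic 4.1 or 6.85 h or the anaerobic 0 h array (adjusted p 0.0552 to 0.077). ERG5, a desaturase, had its widest gap in mid samples, with 13.75 and 13.99 in anaerobic and 14.98 and 15.14 in aerobic cells. Its late difference of -0.40 ± 0.24 was not called (adjusted p = 0.183).

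NCP1 and CYB5 encode the reductase and the cytochrome that pass electrons to these enzymes. NCP1 was higher in anaerobic late samples by 0.64 ± 0.11 (adjusted p = 0.000528) and rose along the anaerobic series by 0.57 ± 0.11 (adjusted p = 0.0127). CYB5 lay between 12.88 and 13.70 in anaerobic and between 13.27 and 14.05 in aerobic samples. Over all phases CYB5 was called lower in anaerobic cells as deposited, and both rescalings reversed that direction too. Its changes along the series, 0.37 ± 0.20 in the anaerobic and 0.04 ± 0.20 in the aerobic series, were not called.

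**Figure D2:**
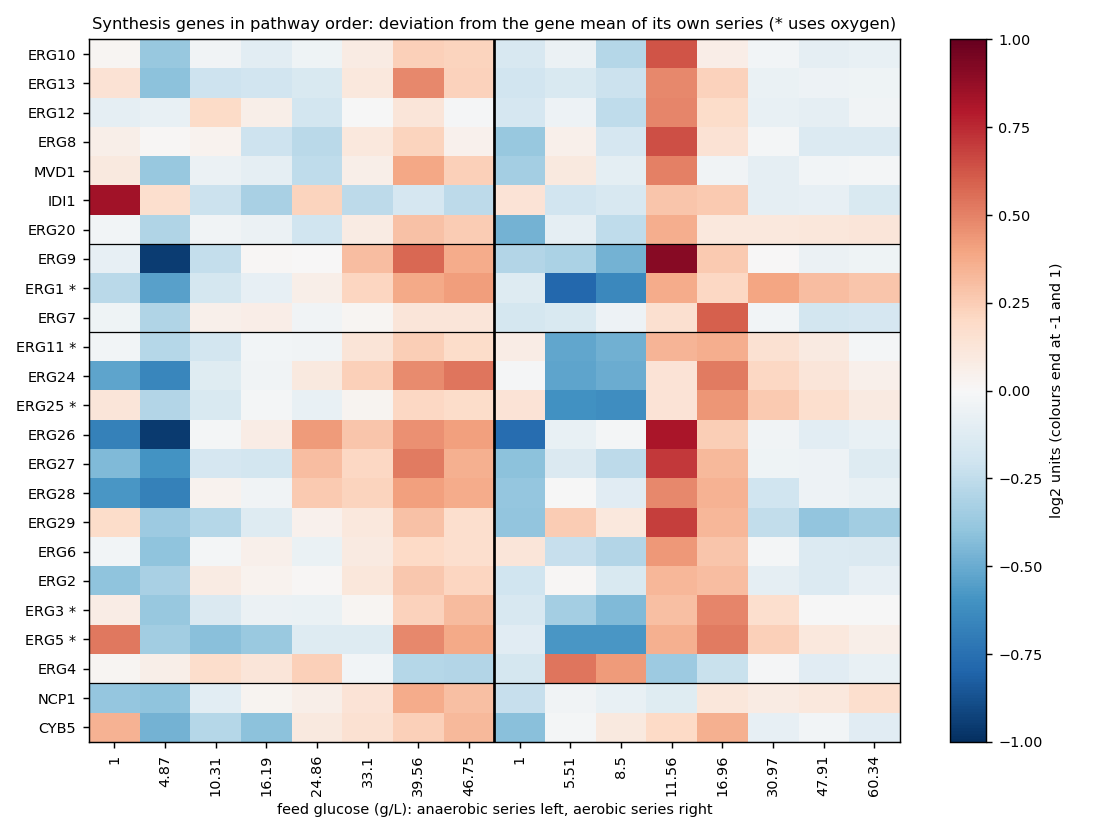
Log2 level of each of the 22 synthesis genes, NCP1 and CYB5 minus the gene's mean in its own series (colour, ending at -1 and 1), with genes in pathway order down the page and samples by feed glucose in g/L across it, anaerobic left of aerobic. Of the 22 genes, 16 are lowest at 4.87 g/L (4.35 h) and 14 highest at 39.56 g/L (42.85 h) in the anaerobic series, and 14 are highest at 11.56 g/L (9.6 h) in the aerobic series.

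The 22 genes of synthesis took their extremes together on a few arrays. The anaerobic 4.35 h array was the lowest of its series for 16 of them, against 22.7% of all genes, and the anaerobic 42.85 h array was the highest for 14, against 10.7% of all genes. In the aerobic series the 9.6 h array was the highest for 14 of 22, against 37.4% of all genes. From one sample to the next, 20 of 22 were higher at 10.38 h than at 4.35 h in the anaerobic series (42.2% of all genes). The median step was 0.29 against -0.06 for all genes. At 42.85 h 21 of 22 were higher than at 35.67 h (58.6% of all genes), with a median step of 0.18 against 0.05. In the aerobic series 21 of 22 were higher at 9.6 h than at 6.85 h (61.8% of all genes), with a median step of 0.74 against 0.30. Then 19 of 22 were lower at 27.25 h than at 14.5 h, where 55.2% of all genes were higher. The median step there was -0.28 against 0.03.

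Counted over all 34 genes, the anaerobic and aerobic series differed in the following numbers. Over all phases 18 were called higher in anaerobic cells (background: 8.0% of all tested genes called higher) and 11 lower (62.3%), with a median of 0.28 against -0.51 for all genes. After quantile normalization 19 were higher (background 23.7%) and 6 lower (25.0%), and after centring 24 were higher (30.0%) and 2 lower (23.0%). The same call stood in all 3 scalings for 16 genes higher and for 2 lower, ARE2 and ERG29. Those higher were ARE1, ATF2, AUS1, PDR11, HES1, YEH2, NCP1, ERG1, ERG7, ERG24, ERG26, ERG28, ERG6, ERG2, ERG3 and ERG4. Of these, HES1 is counted as a description with no test, as stated above.

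In early samples 11 genes were called higher in anaerobic cells (background 2.69%) and 2 lower (36.0%). After quantile normalization 13 were higher (5.24%) and 0 lower (3.45%), and the deposited values gave 4 lower at an unadjusted p under 0.05. The call held in all 3 scalings for 9 genes: ARE1, AUS1, HES1, NCP1, ERG1, ERG7, ERG28, ERG2 and ERG3. HES1 is in the early and late counts as a description with no test. In late samples 19 were called higher (background 4.93%) and 5 lower (49.0%), and after quantile normalization 20 (12.5%) and 1 (13.3%). The late median was 0.49, against -0.57 for all genes, and the late groups did not overlap for 22 genes with anaerobic samples above (10.4% of all tested genes) and for 9 with anaerobic samples below (69.3%). By role, the late calls were 12 higher and 3 lower of 22 genes of synthesis, both importers higher, 1 ester synthase higher and 1 lower, and 1 hydrolase higher and 1 lower. Leaving out 1 array of 16 ended the late call in 9 fits for MVD1, 6 for YEH2, 5 for ERG20, 4 for ERG4, 2 for ERG11 and 1 for ERG27 (adjusted p 0.0509 to 0.16). It ended the early call in 13 fits for ERG7, 11 for NCP1, 3 for ERG25 and 2 for ERG11 (adjusted p 0.0505 to 0.17), and the call over all phases in 6 for KES1 and 1 for CYB5 (adjusted p 0.0503 to 0.0924).

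**Figure D3:**
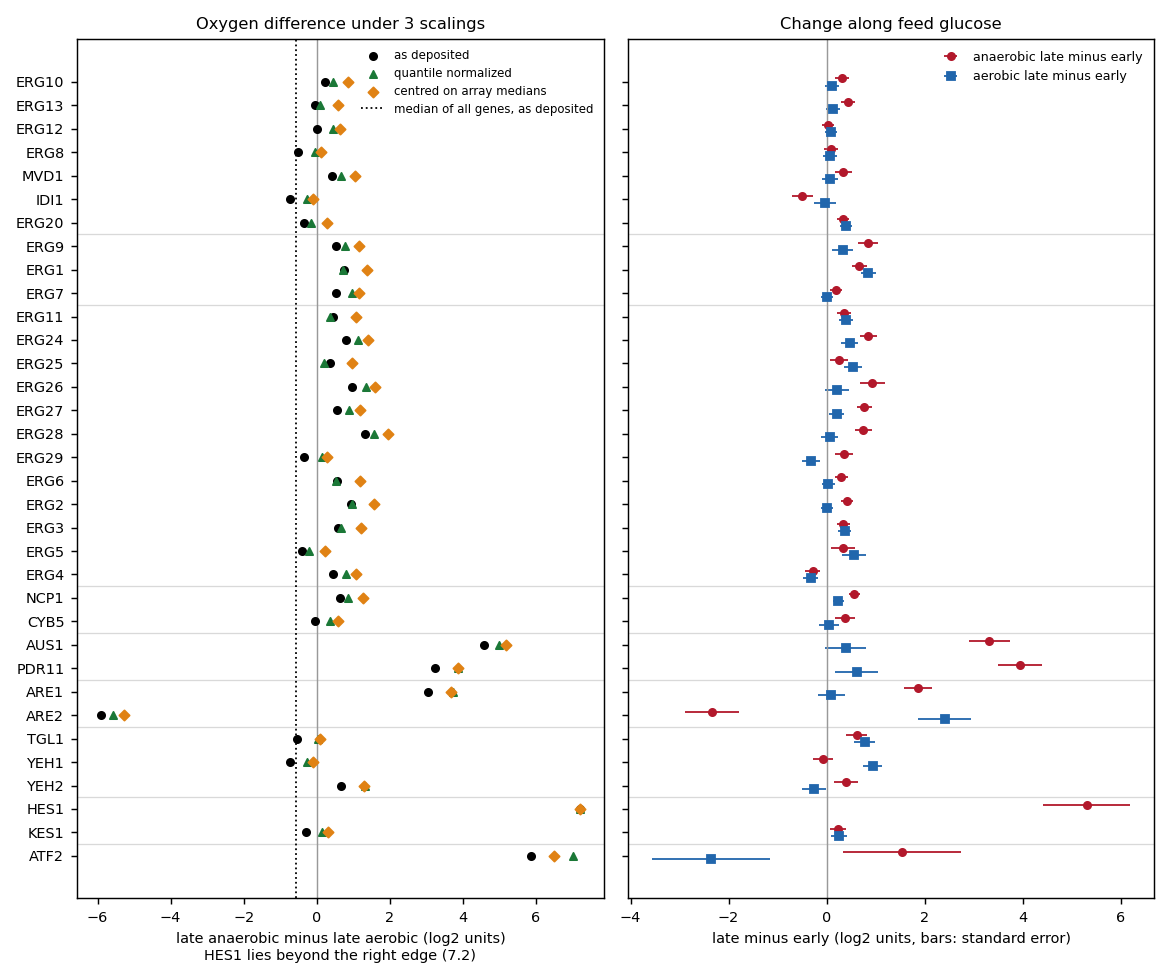
Changes of the 34 genes in log2 units, genes by role down the page: on the left the late anaerobic minus late aerobic difference as deposited, after quantile normalization and after centring, with HES1 drawn at the edge, and on the right the late minus early change with its standard error in the anaerobic and the aerobic series, without the aerobic change of HES1. The dotted line is the median of all genes as deposited, -0.57, and applies to the deposited values alone. After quantile normalization and centring that median was 0.01 and 0.06. AUS1, PDR11, ARE1 and ATF2 have positive and ARE2 negative differences in all 3 scalings.

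Along feed glucose the aerobic series gave 4 genes called higher in late samples (background 11.2%) and 0 lower (4.28%), namely ARE2, YEH1, ERG1 and TGL1. At an unadjusted p under 0.05, limma gave 10 higher and 0 lower. The other 30 genes were not called, and the median change was 0.17 against 0.10 for all genes. The anaerobic series gave 11 higher (background 3.70%) and 1 lower (2.34%), with a median of 0.36 against 0.00. The genes higher in late anaerobic samples were HES1, PDR11, AUS1, ARE1, NCP1 and 6 of the 22 genes of synthesis, namely ERG26, ERG24 (0.85 ± 0.17, adjusted p = 0.0157), ERG9, ERG27 (0.77 ± 0.16, adjusted p = 0.0167), ERG28 (0.74 ± 0.17, adjusted p = 0.0277) and ERG1. The gene that fell was ARE2. The calls of ERG24, ERG27, ERG28 and NCP1 ended without the anaerobic 4.35, 42.85 or 50.85 h array, and that of ERG28 also without the 0 h array (adjusted p 0.0521 to 0.124).

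Without the 3 arrays the aerobic series gave 10 genes higher (background 33.1%) and 4 lower (21.4%), and the anaerobic series 24 higher (20.9%) and 2 lower (19.7%). In that fit all 5 oxygen-using enzymes were called higher in late samples of both series. The aerobic changes then ran from 0.44 to 1.04 and the anaerobic ones from 0.36 to 0.70.

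The change along the series differed between anaerobic and aerobic cells, by the test of the difference itself, for 4 genes with a larger anaerobic change (background 0.844%) and for 1 with a smaller one (0.978%). The differences of changes were 2.93 ± 0.59 for AUS1 (adjusted p = 0.033), 3.33 ± 0.63 for PDR11 (adjusted p = 0.023), 1.76 ± 0.39 for ARE1 (adjusted p = 0.0473) and -4.74 ± 0.78 for ARE2 (adjusted p = 0.0116). HES1 is the other gene counted, but its aerobic change is read from values at the bottom of the scale, so it is given with no test: the fitted difference was 6.04, and 5.37 with values under 4 set to 4. The calls of AUS1, PDR11, ARE1 and ARE2 held in the 3 scalings. Of the 22 genes of synthesis limma called 0 (4 at an unadjusted p under 0.05), and their differences of changes ran from -0.46 for IDI1 to 0.72 for ERG26. Their adjusted p-values began at 0.209, that of ERG28, and missing the threshold does not show that their changes were alike in the series. Without the 3 arrays the test called 7 genes higher (background 3.78%) and 3 lower (5.99%).

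The call of ARE2 in this test held with each of the 16 arrays left out. The call of PDR11 was lost without the aerobic 42.65 or 53.95 h array, the anaerobic 4.35 h array or any 1 anaerobic late array (adjusted p 0.0512 to 0.0818). That of AUS1 was lost without these arrays and without the aerobic 4.1, 6.85 or 27.25 h array (adjusted p 0.0512 to 0.0968). That of ARE1 was lost in 12 of 16 fits, without the arrays named for AUS1, the aerobic 0 h array or either anaerobic mid array (adjusted p 0.0538 to 0.133).

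Other genes of sterol regulation and transport formed a list of 37, of which 36 were tested. Over all phases 5 were called higher (background 8.0%) and 21 lower (62.3%) in anaerobic cells, and 14 higher (23.7%) and 9 lower (25.0%) after quantile normalization. UPC2 encodes a transcription factor of sterol genes. It had 9.56, 10.08 and 10.45 in anaerobic early samples, 11.14 and 11.46 mid, and 12.15, 12.42 and 11.67 late, against 9.24, 8.17 and 8.27 in aerobic early samples, 8.27 and 8.22 mid, and 9.35, 8.97 and 8.96 late. Every anaerobic sample was above every aerobic one. UPC2 rose by 2.05 ± 0.31 along the anaerobic series (adjusted p = 0.00309), and the aerobic change of 0.53 ± 0.31 was not called. Its paralogue ECM22 was not called in either, with 0.02 in the anaerobic and -0.66 in the aerobic series.

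SUT1, a factor of sterol uptake, was higher in anaerobic cells by 2.85 ± 0.22 over all phases (adjusted p = 8.58e-07). ROX1 and MOT3, repressors of hypoxic genes, were lower by -2.13 ± 0.28 and -2.55 ± 0.28 (adjusted p = 3.38e-05 and 8.09e-06). Along the anaerobic series ROX1 fell by 2.42 ± 0.46 (adjusted p = 0.0108) and MOT3 by 1.89 ± 0.45 (adjusted p = 0.0294). HMG1, the HMG-CoA reductase of aerobic cells, was lower by -1.74 ± 0.16 over all phases (adjusted p = 3.07e-06), whereas HMG2, the other reductase, had 0.37 ± 0.16 and was not called (adjusted p = 0.0571), but was called higher after quantile normalization (0.85) and centring (0.96). The calls of SUT1, ROX1, MOT3 and HMG1 held in all 3 scalings. Along the anaerobic series 3 of the 36 rose, UPC2, PRY1 and OSH6 (background 3.70%), and 3 fell, ROX1, MOT3 and HMG1 (2.34%). Along the aerobic series PRY1, which encodes an exported sterol-binding protein, rose by 1.62 ± 0.21 and SUT2 fell by 0.92 ± 0.20. For the difference of changes limma called 0 of the 36 genes (10 at an unadjusted p under 0.05).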

How the data were processed

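Total RNA of 16 samples was hybridized to Affymetrix arrays. The authors deposited 1 log2 intensity per probe set and array, made with GCRMA per the submitters' processing notes. The version of GCRMA is not given in the sources used here, nor whether it was run on both series at once. That the values are in base 2 was inferred from their range.

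Of 5716 probe sets, 5498 had 1 gene symbol and 218 none, which were left out. The probe set of highest mean was used for each of 5449 genes. Genes reaching 4 log2 units on 3 arrays were tested. A model of 6 cell means was fitted with limma 3.58.1 in R 4.3.3 (eBayes with intensity trend, 10 residual degrees of freedom). Calls are Benjamini-Hochberg adjusted p under 0.05 over all tested genes. The fit was tested on simulated data with 200 of 5213 genes changed, flat means and independent noise, which serial samples need not have. Changes of 1 log2 unit were recovered in 85% of genes for anaerobic minus aerobic over all phases. The share was 55% to 65% for the early, late and within-series comparisons and 33% for the difference of changes. All 34 members are named, and values in every sample are given for import and ester genes and for up to 6 called members of largest change in a contrast. Those of ERG28 and ERG9 were added after they were seen. Members and lists were chosen with earlier results of these data known.

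Alternatives were other filters, scalings, probe set means, variance models, phase limits, slopes, arrays of 1 series, 3 arrays left out together, and each array left out.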

Additional observations from a re-analysis of the deposited data

Results flagged for a closer look

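The late minus early change differed between the anaerobic and the aerobic series, by the limma test of the difference, for 4 genes measured in both. The anaerobic change was larger by 3.33 log2 units for PDR11, 2.93 for AUS1 and 1.76 for ARE1, and for ARE2 the difference of the changes was -4.74. HES1 had a fitted difference of 6.04, which is not a measured size because 7 of 8 aerobic values lay under 4 log2 units. It was 5.37 with those values set to 4.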

How the results depend on the processing

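Counts of calls among the 34 genes moved with the arrays used, the phase limits and the scaling. Of 29 calls between anaerobic and aerobic cells over all phases, HES1 included with no test, 18 were the same in 3 scalings. Without the 3 arrays, 20 in place of 13 were called between anaerobic and aerobic early samples, 14 in place of 4 along the aerobic series, 26 in place of 12 along the anaerobic series and 10 in place of 5 for the difference of changes. With early and late as the first and last 4 samples, these were 1 along the aerobic series, 4 along the anaerobic series and 0 for the difference of changes. The slope on log2 feed glucose called 1 along the aerobic series, and the anaerobic arrays alone called 6 along theirs. Calls over all 5213 tested genes moved in these settings too. Along the aerobic series 584 were higher and 223 lower with all arrays, and 1726 and 1115 without the 3 arrays. The other phase limits gave 81 and 41 there, and the slope 91 and 51. Along the anaerobic series the main fit gave 193 and 122, the fit without the 3 arrays 1091 and 1029, and the other phase limits 71 and 24. With 1 array left out, calls ranged from 28 to 30 over all phases, 9 to 16 early, 19 to 26 late, 2 to 11 along the aerobic series, 4 to 14 along the anaerobic series and 1 to 8 for the difference of changes. Along the aerobic series the count was 11 without the aerobic 0 h array, 7 without the anaerobic 0 h array, and 2 without the aerobic 4.1, 6.85, 42.65 or 53.95 h array. Along the anaerobic series it was 4 without the 4.35, 42.85 or 50.85 h array. For the difference of changes it was 8 without the anaerobic 10.38 h array, 2 without the aerobic 4.1, 6.85 or 27.25 h array, and 1 without the aerobic 42.65 or 53.95 h array, the anaerobic 4.35 h array or any 1 anaerobic late array. All tested genes moved here as well. Along the aerobic series 1160 were higher and 483 lower without the aerobic 0 h array, and 222 and 56 without the 6.85 h array. Along the anaerobic series 54 and 20 remained without the 42.85 h array. For the difference of changes 44 and 51 became 197 and 312 without the 3 arrays, and early oxygen calls went from 140 and 1876 to 255 and 2626. The cause was not tested. Changes of sign are listed here only for anaerobic minus aerobic differences called as deposited or after the rescaling. Differences called in neither fit also changed sign and are not listed. Centring turned positive the differences of ERG10 (0.51 over all phases), ERG13 (0.15 over all phases, 0.58 late), ERG12 (0.44, 0.63 late), ERG8 (0.0003 early, 0.12 late), ERG20 (0.10, 0.28 late), CYB5 (0.19, 0.59 late), YEH1 (0.13) and KES1 (0.32). Quantile normalization turned ERG12 (0.32, 0.45 late), CYB5 (0.017), YEH1 (0.037) and KES1 (0.21). No paired analysis was possible because the labels give times and feed glucose but no replicate numbers.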
